A study of Homo sapiens with 12 samples.

Results

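The genes described here are 8 markers and enzymes of the sebaceous gland: PPARG, PRDM1, SOX9 and MUC1, which mark or regulate sebocyte and pilosebaceous identity, HSD3B1, HSD17B2 and SRD5A1, which convert androgens, and MC5R, a melanocortin receptor. A probe set counted as a member when the array annotation gave it exactly 1 of these symbols. All 8 genes were found, each with 1 probe set, among 18417 tested genes. The signals come from 12 Affymetrix arrays of SZ95 cells, an established line of immortalised human sebocytes cultured in Sebomed medium. Its 4 groups of 3 arrays were OLR1 siRNA with UV-PAPC, OLR1 siRNA untreated, scramble siRNA with UV-PAPC, and scramble siRNA untreated. All cells were lipofected with siRNA, and UV-PAPC, a phosphatidylcholine oxidised by ultraviolet light, was given at 25 µg/ml 24 h later. OLR1 encodes the oxidised-lipid receptor LOX-1. The labels describe 1 cell line and name neither a vehicle nor unoxidised PAPC, so the oxidised lipid, its unoxidised form and its vehicle cannot be told apart as agents. They give no sequence for either siRNA, so loss of OLR1 and any other action of that siRNA cannot be told apart either. No label states that the 3 arrays of a group came from separate cultures, so the p-values may rest on technical spread alone.

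Sebocytes are epithelial cells that fill with lipid and burst to release sebum. PPARG, a nuclear receptor that pairs with retinoid X receptors, drives their lipid programme, and androgens raise sebum output. The gland makes its own active androgens from circulating precursors: 3-beta-hydroxysteroid dehydrogenase, encoded by HSD3B1 in skin, acts early in the route, the steroid reductase encoded by SRD5A1 forms dihydrotestosterone, and the enzyme encoded by HSD17B2 oxidises testosterone back to a weaker androgen.

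The promoters of 4 members are shown because PPARG, PRDM1 and MUC1 fell together with UV-PAPC while HSD3B1 fell with OLR1 siRNA. Each sequence is the 250 bases before the most upstream start site in the RefSeq promoter table on build GRCh38.p14, read 5′ to 3′ on the gene's strand. These windows lie at chr3:12287118-12287367 on the plus strand for PPARG, chr6:106086086-106086335 on the plus strand for PRDM1, chr1:155192916-155193165 on the minus strand for MUC1 and chr1:119506953-119507202 on the plus strand for HSD3B1. Capitals mark matches to the motifs searched.
PPARG: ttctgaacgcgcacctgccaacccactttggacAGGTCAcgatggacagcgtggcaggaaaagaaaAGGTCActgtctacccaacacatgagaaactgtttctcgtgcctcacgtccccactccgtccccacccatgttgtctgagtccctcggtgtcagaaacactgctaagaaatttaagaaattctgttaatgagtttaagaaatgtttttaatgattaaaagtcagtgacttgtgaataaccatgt
PRDM1: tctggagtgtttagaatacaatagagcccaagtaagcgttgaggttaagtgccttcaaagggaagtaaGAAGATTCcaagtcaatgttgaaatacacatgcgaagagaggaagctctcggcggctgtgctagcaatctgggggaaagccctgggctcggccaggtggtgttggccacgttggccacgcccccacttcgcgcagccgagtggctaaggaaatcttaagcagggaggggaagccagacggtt
MUC1: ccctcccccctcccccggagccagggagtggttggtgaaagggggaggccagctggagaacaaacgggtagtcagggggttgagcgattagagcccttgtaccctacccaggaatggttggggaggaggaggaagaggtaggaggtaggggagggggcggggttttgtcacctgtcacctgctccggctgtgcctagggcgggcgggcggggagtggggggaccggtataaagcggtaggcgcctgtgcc
HSD3B1: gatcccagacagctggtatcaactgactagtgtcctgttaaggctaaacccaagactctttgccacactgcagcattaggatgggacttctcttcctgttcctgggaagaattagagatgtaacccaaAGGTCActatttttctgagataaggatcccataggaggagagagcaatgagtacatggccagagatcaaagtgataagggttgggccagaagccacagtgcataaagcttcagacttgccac

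Promoter windows were found for 6 of the 8 genes; those of SOX9 and HSD17B2 were not analysed here. The 6 motifs, searched on both strands, were the nuclear receptor core site AGGTCA, the heat shock element core GAANNTTC, the antioxidant response element core TGACNNNGC, the AP-1 site TGANTCA, the SOX core ACAATG and the PRDM1 core GAAAGTG. The AP-1 and antioxidant motifs can overlap. Among 35116 promoter windows of 250 bases, 12.1% held AGGTCA, 5.78% GAANNTTC, 10.9% TGACNNNGC, 6.57% TGANTCA, 9.29% ACAATG and 3.92% GAAAGTG. The printed PPARG window held AGGTCA at positions -217 to -212 and -184 to -179 from the start site, and the HSD3B1 window held it at -122 to -117. The PRDM1 window held GAANNTTC at -182 to -175, and its other listed window held TGANTCA. Of the 6 PPARG windows 3 held AGGTCA, as did both of HSD3B1. Windows of the same gene may overlap, so a single site can count in several of them. The windows of MUC1, SRD5A1 and MC5R held none of the 6 motifs. These matches describe letters in short windows and are no evidence of binding.

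The values are log2 signals made by the authors. Between arrays, across genes, Pearson's r was 0.996 to 0.998 within groups and 0.988 to 0.995 between groups. OLR1, the target of the siRNA, lay between 4.33 and 4.66 in the 6 OLR1 siRNA arrays and between 5.35 and 6.19 in the 6 scramble arrays, a mean log2 fold change of -1.30 (95% CI -1.57 to -1.03, limma adjusted p = 3.25e-06). Among 11 measured sebocyte markers, KRT7, FADS2 and SCD lay at or above percentile 95.5 of an array's gene signals. The wax synthases AWAT1 and AWAT2 and the elongase ELOVL3, genes of mature sebocytes, lay between percentiles 7.85 and 32.4. Probe sets differ in affinity, so a percentile places a signal and does not measure abundance.

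UV-PAPC lowered 4 of the 8 genes, averaged over both siRNAs: SOX9, PPARG, PRDM1 and MUC1, 1.59-fold, 1.33-fold, 1.29-fold and 1.24-fold. In bulk RNA, fewer cells of a type and less RNA per cell cannot be told apart. The other 4 members, which include all 3 androgen enzymes, did not pass the threshold, a limma p of 0.05 after Benjamini-Hochberg adjustment over all genes. The same contrast called 8.03% of all tested genes lower and 5.95% higher, and no member was higher. The median log2 fold change was -0.25 over the members and -0.01 over all genes. Within single siRNAs 3 members fell and none rose with OLR1 siRNA (3.25% of all genes fell and 3.46% rose), and 3 fell and none rose with scramble siRNA (4.64% fell and 2.67% rose). The treated arrays lay wholly below the untreated ones for 3 members with OLR1 siRNA (12.8% of all genes) and for 3 with scramble siRNA (14%). The signals by array show lower means of these 4 genes in UV-PAPC groups. Arrays overlapped for PRDM1 with OLR1 siRNA and for MUC1 with scramble siRNA. HSD3B1, HSD17B2, SRD5A1 and MC5R overlapped between treated and untreated cells under each siRNA.

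**Figure D1:**
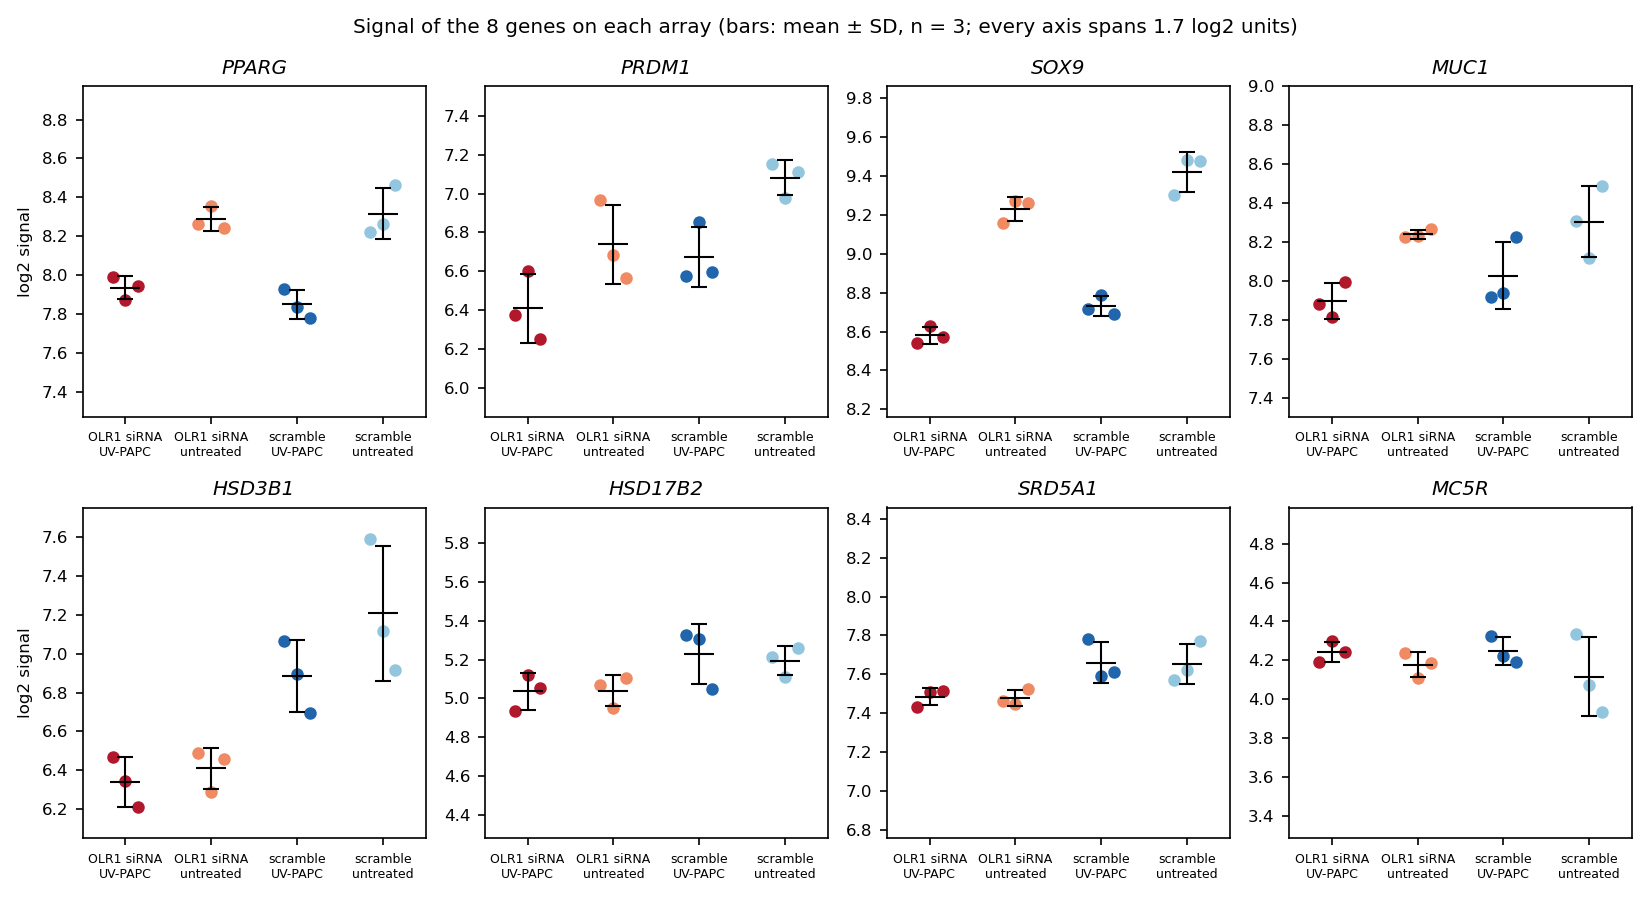
The log2 signal of each of the 8 genes (vertical axis) on every array, by group (horizontal axis: OLR1 siRNA with UV-PAPC, OLR1 siRNA untreated, scramble with UV-PAPC, scramble untreated). Points are arrays and bars give mean ± SD (n = 3); SOX9 and PPARG are lower on all 6 UV-PAPC arrays than on all 6 untreated arrays, and HSD3B1 is lower on all 6 OLR1 siRNA arrays than on all 6 scramble arrays.

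SOX9, a transcription factor of hair follicle and sebaceous progenitors, changed most clearly. With OLR1 siRNA its log2 signals were 8.54, 8.63 and 8.57 with UV-PAPC and 9.16, 9.27 and 9.26 untreated. With scramble siRNA they were 8.71, 8.79 and 8.69 with UV-PAPC and 9.30, 9.48 and 9.48 untreated. No treated array reached the lowest untreated one (over all genes, 2.74% lay below in this way across all 12 arrays). SOX9 fell by 0.65 on the log2 scale with OLR1 siRNA (95% CI -0.80 to -0.50, limma adjusted p = 2.14e-05) and by 0.69 with scramble siRNA (95% CI -0.84 to -0.54, adjusted p = 1.27e-05). It had p rank 63 among the 18417 genes in the mean response. In order from the top, the groups were scramble untreated, OLR1 siRNA untreated, scramble with UV-PAPC and OLR1 siRNA with UV-PAPC, and no neighbouring groups overlapped.

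PPARG had log2 signals of 7.99, 7.88 and 7.95 with UV-PAPC and 8.26, 8.36 and 8.24 untreated in OLR1 siRNA cells. In scramble cells it had 7.93, 7.84 and 7.78 with UV-PAPC and 8.22, 8.26 and 8.46 untreated. Treated and untreated arrays did not overlap under either siRNA, while the siRNAs overlapped within each treatment. PPARG fell by 0.35 with OLR1 siRNA (SE 0.08, limma adjusted p = 0.00829) and by 0.47 with scramble siRNA (SE 0.08, adjusted p = 0.000991). The nearest levels, scramble and OLR1 siRNA untreated, differed by 0.03, and those of the UV-PAPC groups by 0.09, each within the arrays' overlap.

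PRDM1, which encodes the repressor BLIMP1 and marks sebaceous cells in mouse, moved with both treatments. Its log2 signals in OLR1 siRNA cells were 6.38, 6.60 and 6.25 with UV-PAPC and 6.97, 6.69 and 6.57 untreated. In scramble cells they were 6.58, 6.85 and 6.60 with UV-PAPC and 7.15, 6.98 and 7.11 untreated. Treated and untreated arrays overlapped with OLR1 siRNA and did not with scramble siRNA. Averaged over the siRNAs, PRDM1 fell by 0.37 with UV-PAPC (95% CI -0.53 to -0.20, limma adjusted p = 0.00394), and this call held in all 19 alternatives run. It fell by 0.40 with scramble siRNA (SE 0.11, adjusted p = 0.0343), a call lost without scramble untreated array 1 or 3 (adjusted p = 0.129 and 0.111) or scramble UV-PAPC array 1 or 3 (adjusted p = 0.126 and 0.135). With OLR1 siRNA its estimate of -0.33 did not pass (adjusted p = 0.0963), except with array weights, with brighter genes alone or without the second OLR1 siRNA UV-PAPC array (adjusted p = 0.0423, 0.0398 and 0.0411).

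MUC1 encodes a membrane mucin used as a marker of sebaceous differentiation. Its log2 signals in OLR1 siRNA cells were 7.88, 7.81 and 7.99 with UV-PAPC and 8.22, 8.23 and 8.26 untreated. In scramble cells they were 7.92, 7.94 and 8.22 with UV-PAPC and 8.30, 8.12 and 8.49 untreated. The third scramble UV-PAPC array lay above the lowest untreated one, while with OLR1 siRNA the arrays were apart. The mean response was -0.31 (95% CI -0.46 to -0.17, limma adjusted p = 0.00508), past the threshold in all 19 alternatives. With OLR1 siRNA alone MUC1 fell by 0.34 (adjusted p = 0.0435), a call that ended in 9 of 20 alternatives, among them the removal of any OLR1 siRNA untreated array, of the first or second OLR1 siRNA UV-PAPC array, of the first scramble untreated array or of the second scramble UV-PAPC array (adjusted p = 0.0508 to 0.139 over these). With scramble siRNA it was at -0.28 and did not pass (adjusted p = 0.106), but passed in 6 of 20 alternatives. These were without the second scramble untreated or the third scramble UV-PAPC array (adjusted p = 0.0387 and 0.0321) and with the replicate number as a block (adjusted p = 0.0403). The others were trended robust eBayes, array weights and brighter genes alone (adjusted p = 0.0495, 0.0267 and 0.0438).

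The androgen enzymes and MC5R did not pass the threshold with UV-PAPC. SRD5A1 had a mean response of 0.01 (95% CI -0.10 to 0.12) and HSD17B2 of 0.01 (95% CI -0.11 to 0.14), so these data leave room for changes of either sign within those intervals. MC5R was at 0.10 (95% CI -0.03 to 0.23). HSD3B1 was at -0.20 (95% CI -0.40 to 0.01, limma adjusted p = 0.226), with -0.07 in OLR1 siRNA cells (95% CI -0.36 to 0.22) and -0.32 in scramble cells (95% CI -0.61 to -0.03, adjusted p = 0.196). The scramble value was -0.13 without the first scramble untreated array and -0.47 without the third, and the mean -0.10 and -0.27, none past the threshold.

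**Figure D2:**
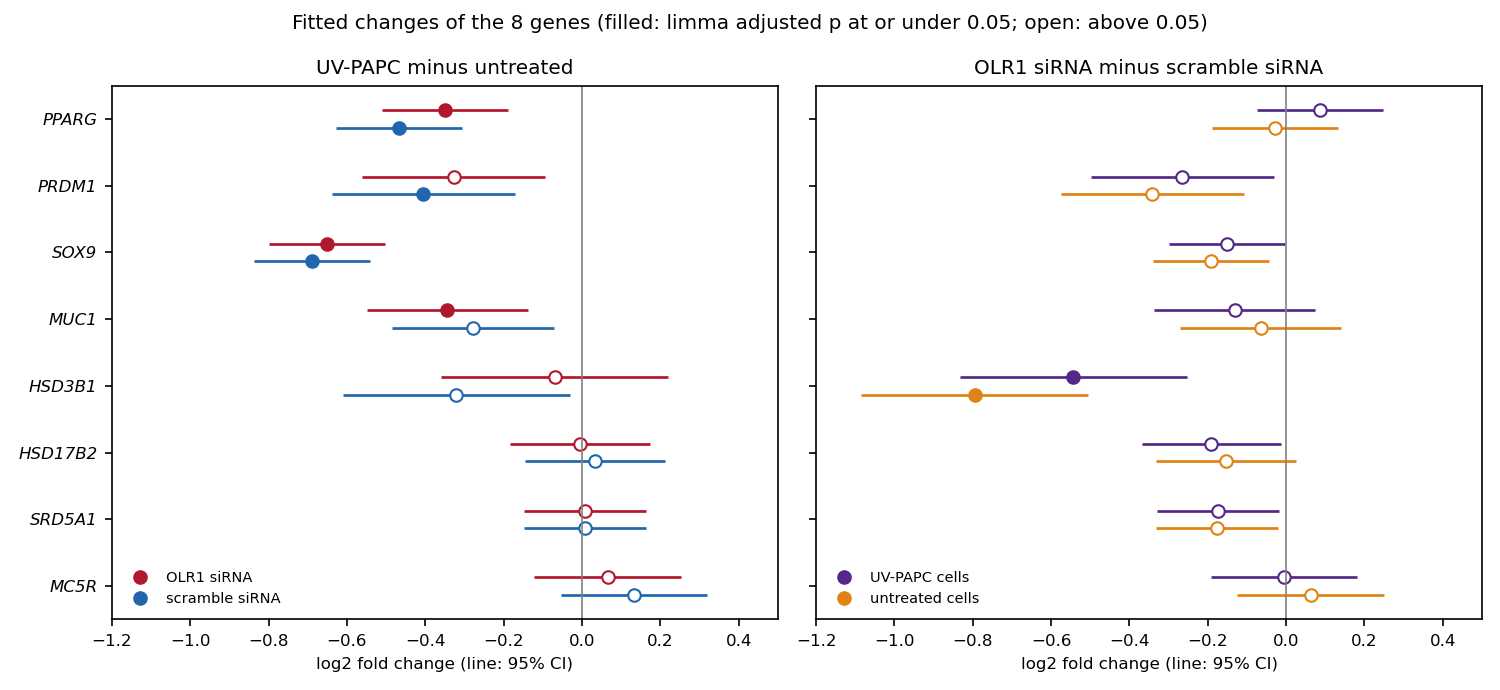
The fitted log2 fold change of each gene (horizontal axis) with its 95% CI, for UV-PAPC against untreated cells on the left and OLR1 against scramble siRNA on the right. Filled points passed a limma adjusted p of 0.05 and open points did not; SOX9 and PPARG are filled under both siRNAs on the left, and HSD3B1 alone is filled on the right.

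OLR1 siRNA lowered HSD3B1, the enzyme gene that opens the androgen route, in both treatments. With UV-PAPC its log2 signals were 6.47, 6.34 and 6.21 with OLR1 siRNA and 7.07, 6.89 and 6.70 with scramble siRNA. Untreated, they were 6.49, 6.29 and 6.46 with OLR1 siRNA and 7.59, 7.12 and 6.92 with scramble siRNA. The siRNA groups did not overlap, and the first untreated scramble array stood highest of all 12 (it and the first scramble UV-PAPC array were also the highest for OLR1, at 6.18 and 6.19). HSD3B1 fell by 0.54 with UV-PAPC (95% CI -0.83 to -0.25, limma adjusted p = 0.0162) and by 0.80 untreated (95% CI -1.09 to -0.51, adjusted p = 0.00136). Without the first untreated scramble array the second value was -0.60 and still passed. The call in UV-PAPC cells was lost without the first scramble or the third OLR1 siRNA UV-PAPC array (-0.45 and -0.48, adjusted p = 0.07 and 0.0682). The mean effect, a 1.59-fold fall (-0.67, SE 0.10, adjusted p = 0.000127), passed in all 19 alternatives.

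In each single treatment 1 member fell, HSD3B1, and none rose, where 4.56% of all genes fell and 7.94% rose in UV-PAPC cells and 4.42% fell and 5.29% rose in untreated cells. OLR1 siRNA arrays lay wholly below scramble arrays for 3 members in UV-PAPC cells (14.1% of all genes) and for 5 in untreated cells (13.7%). In the mean effect 5 members fell and none rose, against 10.2% of all genes lower and 12.9% higher. Besides HSD3B1 these were PRDM1 (-0.30, SE 0.08, limma adjusted p = 0.0104), SRD5A1 (-0.18, SE 0.05, adjusted p = 0.0225), SOX9 (-0.17, SE 0.05, adjusted p = 0.0197) and HSD17B2 (-0.17, SE 0.06, adjusted p = 0.0478). The members' median was -0.17 and that of all genes -0.01. In single treatments these 4 did not pass. PRDM1 was at -0.26 with UV-PAPC and -0.34 untreated (adjusted p = 0.129 and 0.0644), and the untreated value passed in 4 of 20 alternatives, among them without the first OLR1 siRNA untreated array (adjusted p = 0.0216) or the second OLR1 siRNA UV-PAPC array (adjusted p = 0.0457). SOX9 was at -0.15 with UV-PAPC and -0.19 untreated, the untreated value past the threshold without the first scramble untreated array (adjusted p = 0.0481). That value also passed with trended robust eBayes and with brighter genes alone (adjusted p = 0.0473 and 0.0424). In UV-PAPC cells SRD5A1 passed with array weights (adjusted p = 0.0468). HSD17B2 passed there with array weights and without the third scramble UV-PAPC array (adjusted p = 0.0324 and 0.0463).

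SRD5A1 log2 signals with UV-PAPC were 7.43, 7.51 and 7.52 with OLR1 siRNA and 7.78, 7.59 and 7.61 with scramble siRNA. Untreated, they were 7.46, 7.45 and 7.52 with OLR1 siRNA and 7.57, 7.62 and 7.77 with scramble siRNA. Every OLR1 siRNA array lay below every scramble array (3.32% of all genes did so), by differences close to the arrays' spread. Its call in the mean effect was lost without the third scramble untreated, the first scramble UV-PAPC, the second OLR1 siRNA untreated or the first OLR1 siRNA UV-PAPC array (adjusted p = 0.061, 0.0643, 0.0519 and 0.0548). That of SOX9 was lost without the second scramble untreated or the first OLR1 siRNA untreated array (adjusted p = 0.0564 and 0.0542).

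HSD17B2 log2 signals with UV-PAPC were 4.94, 5.12 and 5.05 with OLR1 siRNA and 5.33, 5.30 and 5.05 with scramble siRNA. Untreated, they were 5.07, 4.95 and 5.10 with OLR1 siRNA and 5.21, 5.11 and 5.26 with scramble siRNA. The UV-PAPC groups overlapped through the third scramble array. The signal stayed between percentiles 28.3 and 33.3 of each array, so the setting with brighter genes alone left HSD17B2 out. Whether HSD17B2 was detected was not tested. Its call was lost in 12 of 18 alternatives, both rescalings of the arrays and 8 of the 12 removals of 1 array among them (adjusted p = 0.0693 to 0.117 over the removals), and also with the replicate number as a block (adjusted p = 0.0668); it held without the second scramble untreated, the third scramble UV-PAPC, the third OLR1 siRNA untreated or the second OLR1 siRNA UV-PAPC array.

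MUC1, PPARG and MC5R did not pass in the mean siRNA effect, at -0.10 (95% CI -0.24 to 0.05), 0.03 (95% CI -0.08 to 0.14) and 0.03 (95% CI -0.10 to 0.16). MC5R, the receptor linked to sebum secretion, had log2 signals of 4.19, 4.30 and 4.24 with OLR1 siRNA and UV-PAPC and 4.24, 4.11 and 4.19 with OLR1 siRNA untreated. Its scramble values were 4.33, 4.23 and 4.19 with UV-PAPC and 4.34, 4.08 and 3.94 untreated. All 4 groups overlapped, and the signal stayed between percentiles 13.8 and 19.6 of each array. The deposited table holds no detection call, so whether MC5R was detected was not tested.

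**Figure D3:**
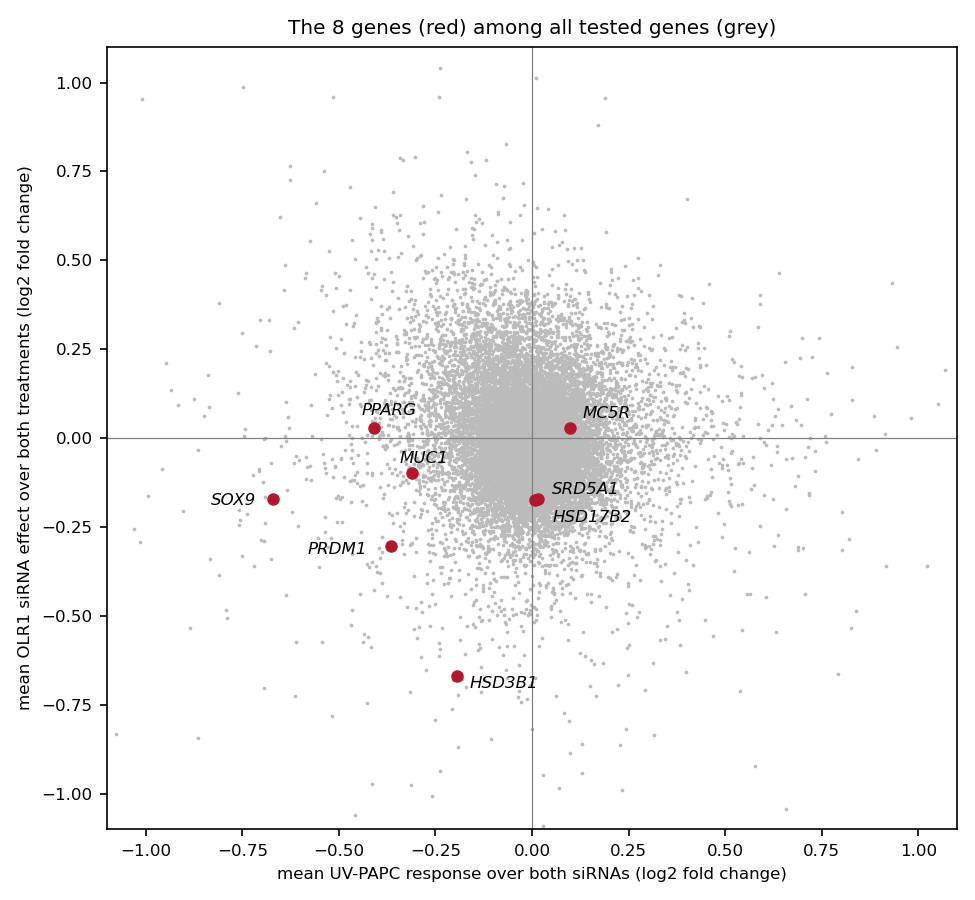
Each point is a gene, placed by its mean UV-PAPC response (horizontal axis) and its mean OLR1 siRNA effect (vertical axis), both log2 fold changes; the 8 genes are red and the other tested genes grey, and 38 genes outside ±1.1 are not drawn. SOX9 lies farthest left of the 8 at -0.67 and HSD3B1 lowest at -0.67, while PRDM1 is below 0 on both axes.

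The order of the group means differed between members. PRDM1 and MUC1 followed that of SOX9, but with overlap between neighbours, except that PRDM1 in scramble untreated cells lay above all other arrays. For HSD3B1 the order from the top was scramble untreated, scramble with UV-PAPC, OLR1 siRNA untreated and OLR1 siRNA with UV-PAPC. The step between the siRNAs did not overlap, and the treatments overlapped within each siRNA. HSD17B2 and SRD5A1 were highest in scramble cells with UV-PAPC and next in scramble untreated cells, which overlapped them. For both, the scramble untreated arrays lay above those of the next group, OLR1 siRNA untreated for HSD17B2 and OLR1 siRNA with UV-PAPC for SRD5A1, and the OLR1 siRNA groups overlapped each other.

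The UV-PAPC responses of the members were then set against each other between siRNAs. No member passed the test of that difference (0 of 8, also 0 at an unadjusted p under 0.05), and limma called 0 of 18417 genes (0%; 1004 had an unadjusted p under 0.05). The response with OLR1 siRNA minus that with scramble siRNA was 0.12 for PPARG (95% CI -0.11 to 0.34), 0.04 for SOX9 (95% CI -0.17 to 0.25), 0.08 for PRDM1 (95% CI -0.25 to 0.41) and -0.07 for MUC1 (95% CI -0.36 to 0.23). For HSD3B1 it was 0.25 (95% CI -0.16 to 0.66), with 0.06 without the first scramble untreated array and 0.40 without the third. It was -0.04 for HSD17B2 (95% CI -0.29 to 0.21), 0.00 for SRD5A1 (95% CI -0.22 to 0.22) and -0.07 for MC5R (95% CI -0.33 to 0.20). All 8 intervals hold 0, and the one of HSD3B1 is the widest.

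The other measured genes of androgen and steroid metabolism showed where the 3 enzymes stand. Of 40 measured in a list of 45, 6 rose and 2 fell in the mean UV-PAPC response, in which 5.95% of all genes rose and 8.03% fell. AKR1C3, which reduces weak androgens to testosterone, rose by 1.20 with OLR1 siRNA (SE 0.11, limma adjusted p = 5.83e-06) and by 0.76 with scramble siRNA (SE 0.11, adjusted p = 0.000528). AKR1C1 (0.36), DHRS9, a dehydrogenase of retinol and steroids (0.34), HSD17B3, the testicular enzyme that forms testosterone (0.24), AKR1C4 (0.23) and the cytochrome P450 reductase POR (0.18) also rose in the mean response. HSD17B8 (-0.19) and the glucuronosyltransferase UGT2B28 (-0.23) fell. AKR1C genes are alike in sequence to differing degrees and may share probe signal, so the single AKR1C values are uncertain. The steroid sulfatase STS was at -0.11 and HSD17B12 at 0.17, neither past the threshold.

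In the mean OLR1 siRNA effect 4 of the 40 rose and 3 fell, counts near the shares over all genes (12.9% rose and 10.2% fell), and no gene of this list had a lower estimate than HSD3B1. SULT2B1, a sulfotransferase of cholesterol and steroid precursors, fell by 0.49 (SE 0.07, limma adjusted p = 6.53e-05), CYP7B1, which hydroxylates oxysterols and steroids, by 0.33 and HSD17B1, which forms estradiol, by 0.24. H6PD, which supplies NADPH to steroid reductases in the endoplasmic reticulum (0.33), HSD17B11 (0.31), DHRS9 (0.25) and the mitochondrial HSD17B10 (0.21) rose. HSD3B2, the adrenal and gonadal paralog of HSD3B1, was at -0.10 (SE 0.06, adjusted p = 0.31); the sequences are much alike, so shared probe signal between them is possible. The list's median was 0.02, against -0.01 over all genes.

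**Figure D4:**
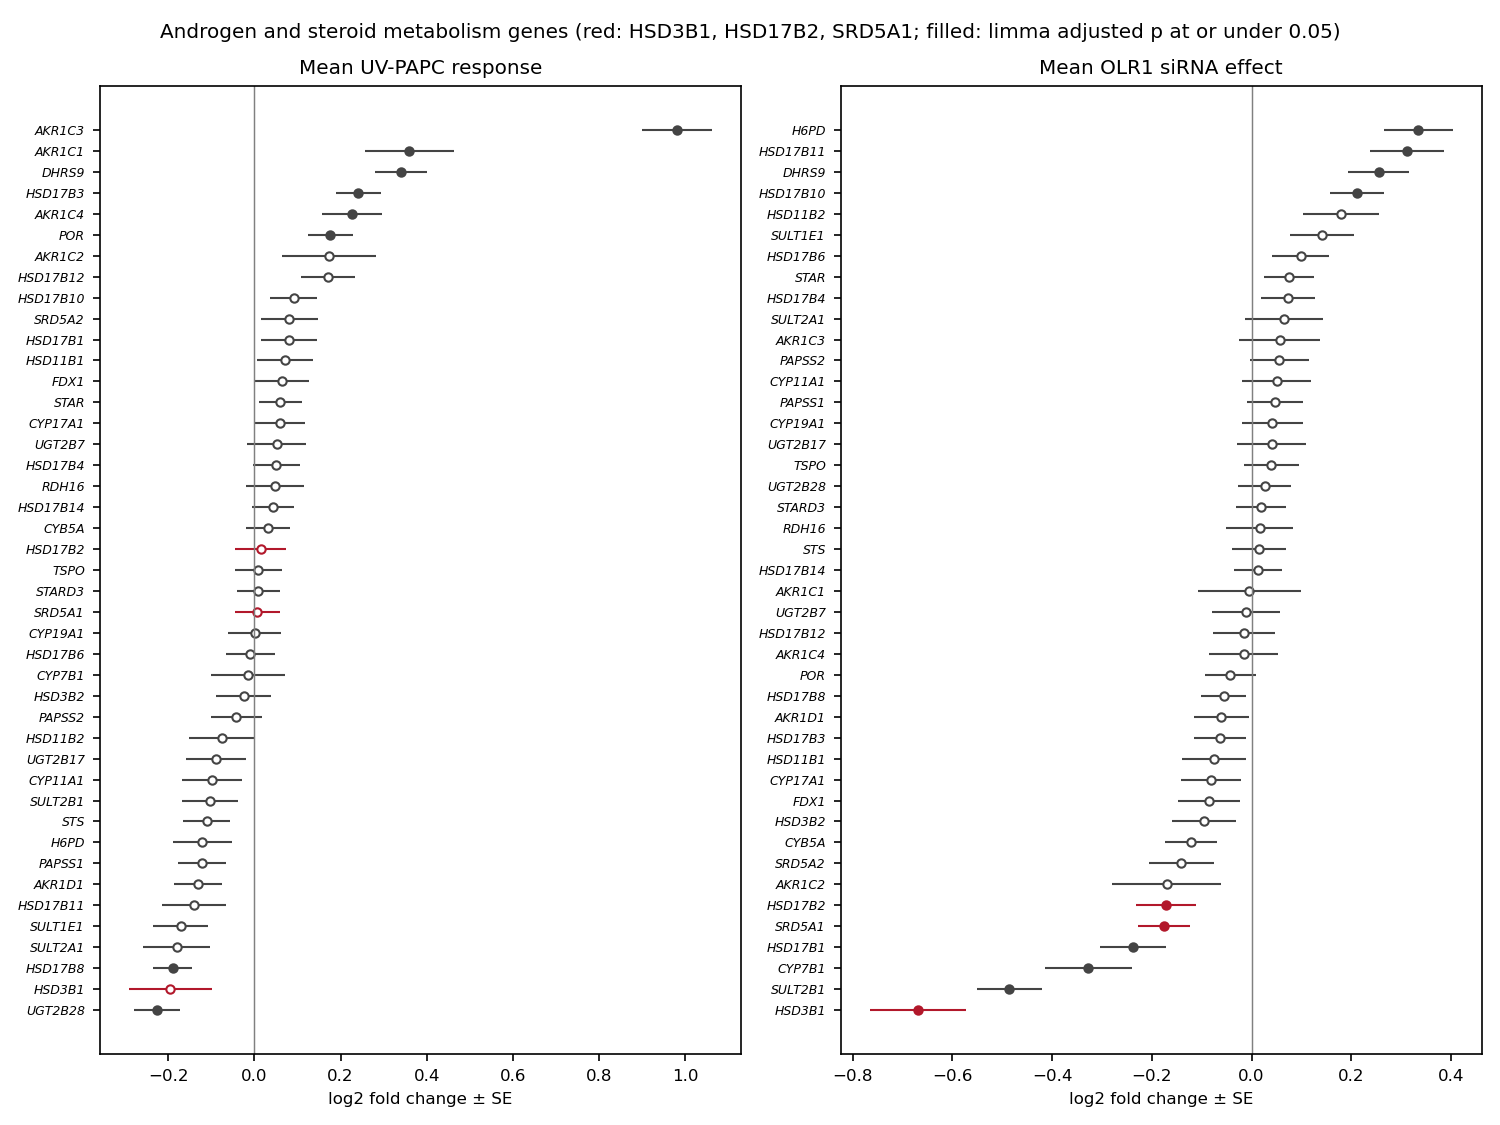
Log2 fold changes ± SE (horizontal axis) of 40 androgen and steroid metabolism genes and of HSD3B1, HSD17B2 and SRD5A1 (red), sorted from the highest at the top, for the mean UV-PAPC response on the left and the mean OLR1 siRNA effect on the right. Filled points passed a limma adjusted p of 0.05; AKR1C3 is highest on the left at 0.98 and HSD3B1 lowest on the right at -0.67.

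The partners and coregulators of PPARG were measured beside it. Of 14 measured, 0 passed in the UV-PAPC response of OLR1 siRNA cells and 0 in that of scramble cells by limma (1 and 4 at an unadjusted p under 0.05), and RXRA, its dimer partner, had a mean response of 0.01. In the mean response 1 of the 14 rose, the corepressor TLE3 (0.19), near the share over all genes (5.95%). In the mean OLR1 siRNA effect 2 rose, the coactivator subunit MED1 (0.29) and the receptor PPARA (0.18), near that contrast's share (12.9%). Of 19 measured PPARG targets 3 rose and 1 fell in the mean response, against 5.95% and 8.03% of all genes. PLIN2, which coats lipid droplets (0.62), ANGPTL4, an inhibitor of lipoprotein lipase (0.63), and the acyl-CoA synthetase ACSL1 (0.23) rose, and the lipolysis inhibitor G0S2 fell (-0.29). With OLR1 siRNA 5 of these 19 targets fell and none rose in the mean effect, where 10.2% of all genes fell and 12.9% rose: ACSL1 (-0.86), CPT1A, of fatty acid import into mitochondria (-0.37), ANGPTL4 (-0.30), CIDEA (-0.23) and the desaturase SCD (-0.16).

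Of 14 measured steroid receptors, chaperones and coregulators, 3 rose in the UV-PAPC response under each siRNA. Over all genes 3.46% rose with OLR1 siRNA and 2.67% with scramble siRNA. The 3 were the chaperones of steroid receptors FKBP4, HSP90AA1 and PTGES3. Their mean responses were 0.52, 0.62 and 0.39. The coregulators NCOA1 (-0.24) and NRIP1 (-0.19) fell in the mean response, in which 8.03% of all genes fell. In the mean OLR1 siRNA effect 3 of the 14 rose, PTGES3 (0.33), the coactivator NCOA2 (0.22) and the glucocorticoid receptor NR3C1 (0.17), and 2 fell, FKBP4 (-0.31) and the pioneer factor FOXA1 (-0.19), against 12.9% and 10.2% of all genes. In the melanocortin system, apart from MC5R, 1 of 15 measured genes passed under UV-PAPC with OLR1 siRNA, the antagonist ASIP (-0.24), and 0 with scramble siRNA (1 at an unadjusted p under 0.05). Over all genes 3.25% fell with OLR1 siRNA and 4.64% with scramble siRNA. POMC, the ligand precursor, the receptor MC1R and the accessory protein gene MRAP had mean responses of 0.02, 0.07 and -0.10, none past the threshold.

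Other sebaceous gland genes, 28 measured, held 4 falls and 1 rise in the mean UV-PAPC response, against 8.03% and 5.95% of all genes. GATA3, an epithelial transcription factor, fell by 0.84 with OLR1 siRNA (SE 0.07, limma adjusted p = 1.85e-06) and by 0.92 with scramble siRNA (SE 0.07, adjusted p = 8.14e-07). GATA6, a factor of sebaceous duct cells in mouse (-0.39), and the growth factor receptors FGFR2 (-0.26) and IGF1R (-0.21) fell, and the elongase ELOVL5 rose (0.40). Like SOX9 and PRDM1, GATA3 also fell with OLR1 siRNA (-0.53), together with KRT7 (-0.15), CIDEA and ALOX15B (-0.17), while FGFR2 rose (0.26), so that 4 fell and 1 rose, against 10.2% and 12.9% of all genes.

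Markers of other lineages moved with OLR1 siRNA in some cases. CDH5 (0.57), CD68 (0.42) and MITF (0.35) rose in the mean effect, 1 each of 6 measured endothelial, 6 leukocyte and 6 melanocyte markers. CLDN5 (-0.17), TYR (-0.23) and the fibroblast marker TWIST1 (-0.16) fell. Over all genes 12.9% rose and 10.2% fell in this contrast. MITF also fell with UV-PAPC in the mean response (-0.15). Summed log2 signals of the 6 leukocyte markers were 31.07 to 31.36 with OLR1 siRNA and 31.11 to 31.23 with scramble siRNA under UV-PAPC, and 31.09 to 31.60 with OLR1 siRNA and 30.75 to 30.98 with scramble siRNA untreated. Those of the 6 endothelial markers were 31.10 to 31.50 with OLR1 siRNA and 31.08 to 31.28 with scramble siRNA under UV-PAPC, and 31.52 to 31.94 with OLR1 siRNA and 31.24 to 31.68 with scramble siRNA untreated. The melanocyte sums were 30.41 to 30.54 with OLR1 siRNA and 31.15 to 31.21 with scramble siRNA under UV-PAPC, and 30.35 to 30.90 with OLR1 siRNA and 30.43 to 30.90 with scramble siRNA untreated. Fibroblast sums over 10 markers under UV-PAPC were 48.78 to 49.51 with OLR1 siRNA and 49.72 to 49.94 with scramble siRNA, and untreated 49.07 to 49.97 with OLR1 siRNA and 49.39 to 49.53 with scramble siRNA. Sums over the 11 sebocyte markers, which include PPARG, MUC1 and MC5R, were 76.31 to 76.90 with OLR1 siRNA and 76.95 to 77.49 with scramble siRNA under UV-PAPC, and 75.94 to 76.70 with OLR1 siRNA and 77.19 to 77.49 with scramble siRNA untreated. Between siRNAs, the arrays were thus apart for the sebocyte sums in both treatments (lower with OLR1 siRNA), for the melanocyte and fibroblast sums under UV-PAPC (lower with OLR1 siRNA) and for the leukocyte sums untreated (higher with OLR1 siRNA). Between treatments, UV-PAPC arrays lay above untreated ones in scramble cells for the leukocyte, melanocyte and fibroblast sums, and below them in OLR1 siRNA cells for the endothelial sums. A sum takes in any offset of a whole array once per gene, and array medians ran from 6.31 to 6.36. The part of such offsets in these gaps, and how often sums of other genes lie apart, was not tested. Of the 11 sebocyte markers 2 fell and none rose in the mean OLR1 siRNA effect (10.2% of all genes fell). None of 10 cornification markers passed in either mean effect by limma (1 at an unadjusted p under 0.05 in each). The levels of these lists were mixed: CD68 lay at percentiles 92.7 to 95.9 of an array's signals, CDH5 at 74.9 to 86.3 and MITF at 79.2 to 86.2, while PTPRC lay at 2.21 to 6.68, PECAM1 at 13.3 to 16.2 and MLANA at 4.15 to 8.79. Their part in the changes of the 8 genes was not tested.

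For each member with a call, the 3 genes with the most similar signal over the 12 arrays were named by Pearson's r; the arrays share 4 groups, so r mostly restates group differences. They were TNFSF15, BHLHE40 and SRGAP2 for SOX9 (r = 0.980, 0.978 and 0.977), SNN, EFNB2 and STAT3 for PPARG (0.969, 0.959 and 0.954) and OVOL1, GLTP and KAT2B for PRDM1 (0.931, 0.925 and 0.920). For MUC1 they were ELFN2, FLI1 and CCDC9B (0.946, 0.916 and 0.913), and for HSD3B1 HIF1A, GOLT1A and PRKAA1 (0.962, 0.951 and 0.945). SRD5A1 was most like CST1, GATAD2B and DTX1 (0.936, 0.928 and 0.915), and HSD17B2 like LRRC75A, PARM1 and TRMT61A (r = 0.887 for each). Among the members themselves the highest r were 0.90 for PPARG with SOX9, 0.80 for HSD17B2 with SRD5A1 and 0.79 for MUC1 with SOX9.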

How the data were processed

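Total RNA of 12 SZ95 samples was labelled with the WT PLUS kit, per the labels' protocols. The deposited table holds log2 signals. Per the submitters' processing notes, the authors used RMA and Affymetrix Expression Console 1.3.1.187. The sources used here do not give the settings of RMA, which compresses large folds, or the hours of exposure to UV-PAPC, and the number of arrays limits precision.

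Of 33297 probe sets, 19460 carried 1 symbol, 1754 several and 12083 none. Genes with several probe sets were represented by the brightest one on average. A model of 4 group means (residual df 8) was fitted to 18417 genes with limma 3.58.1 in R 4.3.3, with eBayes and Benjamini-Hochberg adjustment over all genes, and tested on simulated data. Contrasts were UV-PAPC against untreated and OLR1 against scramble siRNA, singly, averaged and as their difference.

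Named were all members, OLR1, up to 6 genes per list and comparison past the threshold, fixed pathway partners, and the 3 genes most like each called member. The members and lists were chosen with earlier results of these data known. SRD5A3 was not analysed here. Alternatives were trended robust eBayes, array weights, brighter genes, probe set means, 2 rescalings, a replicate block, the comparison's arrays alone and leaving out each array.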

Additional observations from a re-analysis of the deposited data

How the results depend on the processing

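Of 1082 values of single genes under the alternatives, 977 kept their direction and their side of the threshold, 33 no longer passed, 19 newly passed and 53 changed sign, none of the last past the threshold. The 4 falls in the mean UV-PAPC response (SOX9, PPARG, PRDM1 and MUC1) passed under every alternative run, as did HSD3B1 in the mean OLR1 siRNA effect. Members that fell with OLR1 siRNA in untreated cells, 1 in the report, numbered 3 with trended robust eBayes and 3 among brighter genes, and 1 to 2 when single arrays were left out; in UV-PAPC cells, 1 in the report, they numbered 3 with array weights and 0 to 2 without single arrays. In the mean OLR1 siRNA effect 5 members fell in the report and 3 to 5 without single arrays. Small estimates changed sign. With array weights the difference of responses was 0.0027 for MUC1 and -0.044 for SRD5A1, and with quantile normalization -0.039 for SRD5A1 and -0.0023 for SOX9. HSD17B2 in the UV-PAPC response with OLR1 siRNA was 0.0063 with centred arrays and 0.012 with quantile normalization, MC5R in the OLR1 siRNA effect under UV-PAPC was 0.027 and 0.042, and PPARG in the mean OLR1 siRNA effect was -0.0079 with quantile normalization. Without single arrays the UV-PAPC response of HSD17B2 ranged from -0.051 to 0.046 with OLR1 siRNA, from -0.017 to 0.12 with scramble siRNA and from -0.011 to 0.059 in the mean, and that of SRD5A1 from -0.0076 to 0.034, from -0.054 to 0.064 and from -0.023 to 0.036. The OLR1 siRNA effect ranged from -0.033 to 0.034 for MC5R under UV-PAPC, from -0.028 to 0.17 for MC5R, -0.16 to 0.027 for MUC1 and -0.075 to 0.046 for PPARG in untreated cells, and from -0.017 to 0.084 for MC5R in the mean. The difference of responses ranged from -0.13 to 0.013 for HSD17B2, -0.18 to 0.023 for MC5R, -0.16 to 0.033 for MUC1, -0.019 to 0.19 for PRDM1 and -0.056 to 0.062 for SRD5A1. The cause of these changes was not tested, beyond that leaving out an array leaves fewer samples. Without the first scramble untreated array 868 of all genes passed in the UV-PAPC response with scramble siRNA, against 1347 with all arrays. In the OLR1 siRNA effect in untreated cells 1113, 1158 and 1101 passed without scramble untreated array 2, scramble untreated array 3 and OLR1 siRNA untreated array 2, against 1789 with all arrays, and in UV-PAPC cells 1267 and 1372 passed without OLR1 siRNA UV-PAPC array 1 and scramble UV-PAPC array 3, against 2302. The r of deviations was -0.22 to 0.26 over 18 same-numbered pairs (median 0.03) and -0.26 to 0.27 over 36 different-numbered pairs (median -0.01). Same-numbered arrays as a set thus deviated together little more than others, so the numbers are not taken as pairs. Pairs of first arrays all had r above 0, from 0.02 to 0.18. With the replicate block, MUC1 in the UV-PAPC response with scramble siRNA passed (-0.28, limma adjusted p = 0.0403), HSD17B2 in the mean OLR1 siRNA effect did not (-0.17, adjusted p = 0.0668), and it changed no other member call; members that fell then numbered 3 with OLR1 siRNA and 4 with scramble siRNA under UV-PAPC. Signal over background could not be judged, since no detection values were used here.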

Other observations

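A list of membrane mucins, the class to which MUC1 belongs, and of glycosylation enzymes held 4 falls and no rise among 14 measured in the mean UV-PAPC response. GALNT5, an enzyme that starts O-glycosylation, fell by 0.87 on the log2 scale (SE 0.06, limma adjusted p = 4.41e-08), the mucins MUC16 by 0.55 and MUC20 by 0.47, and the glycosylation enzyme GALNT3 by 0.21. The median of the 14 was -0.10, against -0.01 over all genes, of which 8.03% fell. With OLR1 siRNA MUC16 (-0.36) and MUC4 (-0.37) fell and C1GALT1, which extends O-glycans, rose (0.19), in a contrast where 10.2% of all genes fell and 12.9% rose.

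Among 20 genes of hair follicle stem cells and their signals, the setting in which SOX9 is best known, 4 fell and none rose in the mean UV-PAPC response, against 8.03% and 5.95% of all genes. These were RUNX1 (-0.47, limma adjusted p = 1.08e-05), the basal keratin KRT15 (-0.46, adjusted p = 0.000614), SOX4 (-0.34) and the Hedgehog receptor PTCH1 (-0.21). With OLR1 siRNA NFIB, a transcription factor of follicle stem cells in mouse, fell by 0.68 (SE 0.05, adjusted p = 4.35e-07) and CD34, GLI2 and SMO by 0.19, 0.19 and 0.13. PTCH1 rose (0.25), so that 4 of 20 fell and 1 rose, against 10.2% and 12.9% of all genes in this contrast.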
